A study of Mus musculus with 14 samples.

Results

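The expression of 10 genes of the Wnt pathway was followed in mouse embryonic stem (ES) cells that entered a dormant-like state under an inhibitor of the kinase mTOR. The genes were taken by name, with no threshold on their values, but were chosen with earlier results of these data known. They are *Ctnnb1*, *Axin1*, *Axin2*, *Lef1*, *Tcf7*, *Tcf7l1*, *Tcf7l2*, *Sp5*, *Nkd1* and *T*, 10 of the 54446 gene identifiers in the data, and each matched 1 identifier. Expression was measured by RNA-seq of total RNA depleted of ribosomal RNA in 14 libraries, which form 7 groups of 2. E14 wild-type (WT) cells were untreated (0 h) or treated with the mTOR inhibitor Ink128 (mTORi) for 24, 72 or 144 h, and E14 cells labelled TET1/2 DKO were untreated or treated for 24 or 72 h. All cells were grown in serum with LIF and without feeder cells. The DKO line came from a single sorted E14 cell after Cas9 deletion of *Tet1* and *Tet2*, which encode enzymes that oxidise 5-methylcytosine, so that genotype and clone cannot be told apart. No DKO library at 144 h was analysed here.

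Wnt ligands act through Frizzled and LRP receptors on β-catenin, the product of *Ctnnb1*. Without ligand, a destruction complex built on the scaffold Axin marks β-catenin for degradation. When that complex is inhibited, β-catenin enters the nucleus and binds DNA-binding proteins of the TCF/LEF family, which are encoded by *Tcf7* (TCF1), *Lef1*, *Tcf7l1* (TCF3) and *Tcf7l2* (TCF4). In mouse ES cells TCF3 is known mainly as a repressor of pluripotency genes whose repression β-catenin relieves, whereas TCF1 and LEF1 are usually described as activators. *Axin2*, *Sp5*, *Nkd1* and *T* are widely used as readouts of pathway activity, and *Axin2* and *Nkd1* encode feedback inhibitors.

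Promoters are shown for those of the 10 genes with a window that holds the core letters of the TCF/LEF motif, and for *Axin2* as the readout gene with the highest expression. The windows run from 250 bases before to 50 bases after the annotated start, 5′ to 3′ on the strand of the gene, from RefSeq on build GRCm38.p6. Capitals mark CTTTGA or its reverse complement TCAAAG. Any of the 2 forms was found in 16.0% of all 32851 windows, and 1.73% held 2 or more. Of 15 windows for 9 of the genes, 3 held a match, in *Sp5*, *T* and an internal start of *Lef1*. *Axin1* was not matched to a window.
Sp5, chr2:70474673-70474972, plus strand: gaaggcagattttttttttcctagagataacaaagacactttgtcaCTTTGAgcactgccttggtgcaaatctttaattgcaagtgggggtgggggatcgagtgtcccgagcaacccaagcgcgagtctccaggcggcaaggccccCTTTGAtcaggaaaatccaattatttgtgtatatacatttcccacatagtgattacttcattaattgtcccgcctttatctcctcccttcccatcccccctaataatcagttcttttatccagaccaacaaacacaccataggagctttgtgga
T, chr17:8434173-8434472, plus strand: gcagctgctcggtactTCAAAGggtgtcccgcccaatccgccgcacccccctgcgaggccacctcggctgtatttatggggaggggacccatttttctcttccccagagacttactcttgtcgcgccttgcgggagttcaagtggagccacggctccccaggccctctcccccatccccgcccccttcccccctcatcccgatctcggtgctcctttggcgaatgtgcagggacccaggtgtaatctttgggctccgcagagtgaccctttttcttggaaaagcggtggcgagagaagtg
Lef1 (internal start), chr3:131156044-131156343, plus strand: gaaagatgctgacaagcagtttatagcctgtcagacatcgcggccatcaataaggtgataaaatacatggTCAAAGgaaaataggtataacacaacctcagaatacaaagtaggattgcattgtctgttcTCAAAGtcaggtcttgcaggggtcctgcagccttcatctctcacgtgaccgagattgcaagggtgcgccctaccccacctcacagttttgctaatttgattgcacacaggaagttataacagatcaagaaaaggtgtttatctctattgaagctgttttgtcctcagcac
Axin2, chr11:108920099-108920398, plus strand: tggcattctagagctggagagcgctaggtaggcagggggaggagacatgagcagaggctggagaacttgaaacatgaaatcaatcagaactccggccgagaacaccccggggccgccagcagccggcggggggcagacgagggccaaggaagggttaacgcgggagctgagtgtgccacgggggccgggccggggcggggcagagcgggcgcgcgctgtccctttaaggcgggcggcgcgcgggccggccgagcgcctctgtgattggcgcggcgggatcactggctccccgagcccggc
The *Sp5* window held 2 matches, which begin at −204 and −104 bases from the start, and the *T* window held 1, at −234. The internal *Lef1* window held 2, at −180 and −120. The *Axin2* window held none. A match is a run of letters, and no binding was measured here.

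Levels are given in spike-in normalized TPM (transcript abundance scaled by length and library total that can be compared between genes). Each deposited TPM was multiplied by 1 factor per library that expresses it relative to ERCC RNA, a mix of synthetic transcripts. The study extracted RNA from equal numbers of sorted cells and prepared libraries from a fixed mass of RNA. It does not state at which step the ERCC RNA was added. The factors ranged from 1.0 to 2.815, were lowest at 144 h, and differed between the 2 DKO replicates at 24 h (2.235 and 1.357) and at 72 h (2.533 and 1.727). Changes were tested on log2(TPM + 1) with limma over 18232 genes, and a gene was called at a Benjamini-Hochberg adjusted p under 0.05. The study calls its replicates biological and its experiments independent repeats, but the labels do not say how the 2 libraries of a group were grown, and the p-values measure only the spread between these libraries. TPM hold no read depth, which was not used here. In bulk RNA, fewer cells of a type and less RNA per cell cannot be told apart.

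The ES cell markers *Pou5f1*, *Sox2*, *Nanog* and *Zfp42* were present in every library. Their summed level was 4477 to 4518 TPM in WT at 0 h and 2228 to 2444 TPM at 144 h. *Tet2* was 129 to 210 TPM in the 8 WT libraries (median 179) and 27.1 to 55 TPM in the 6 DKO libraries (median 44.1). *Tet1* overlapped between the genotypes, at 344 to 516 TPM in WT and 238 to 602 TPM in DKO, so its level does not check the label of the DKO libraries. A gene total also holds reads from exons that a deletion leaves in place.

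The 10 genes covered a wide range of levels. *Ctnnb1* was highest, at a mean of 665 TPM over the 14 libraries, followed by *Axin1* at 60.1 TPM, *Tcf7l1* at 51.2 TPM, *Tcf7* at 50.4 TPM, *Axin2* at 35.5 TPM and *Lef1* at 34.3 TPM. *Tcf7l2* averaged 11.8 TPM. *Nkd1* at 2.02 TPM, *T* at 1.72 TPM and *Sp5* at 0.992 TPM were barely expressed. *Lef1* had the widest range, 16.7-fold between its lowest and highest library, and *Axin1* the narrowest, 2.31-fold. *Sp5* fell under the mean of 1 TPM required for the test, so 9 of the 10 genes were tested.

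**Figure D1:**
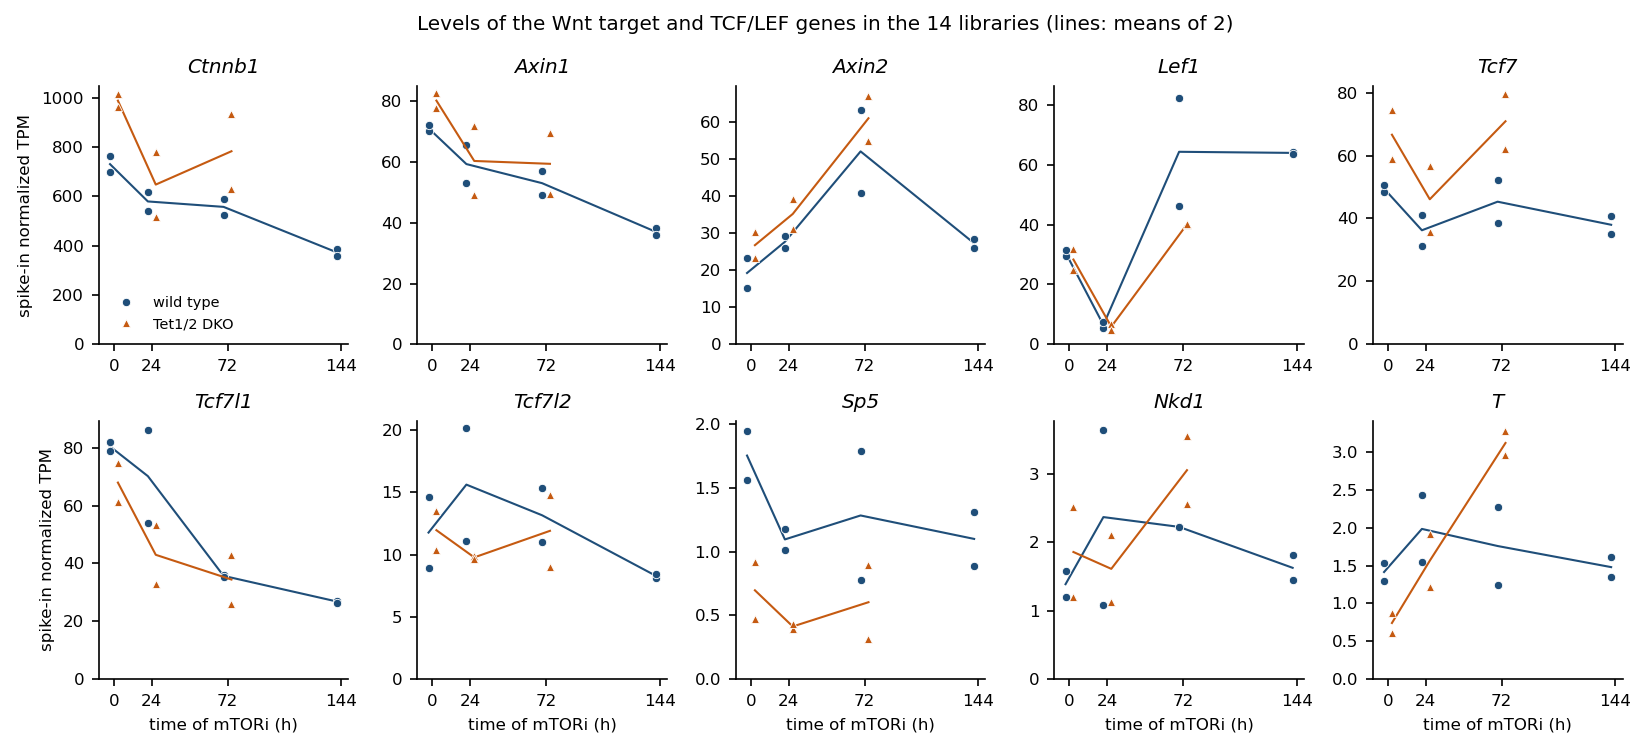
Spike-in normalized TPM of the 10 genes (y axis, from 0) against the time of mTORi in hours (x axis). Points are single libraries, circles WT and triangles DKO, and lines join the means of 2 libraries. *Lef1* dips at 24 h to between 4.93 and 7.48 TPM in both genotypes, and *Axin2* peaks at 72 h.

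*Lef1*, which encodes a TCF/LEF activator, fell at 24 h and was above its starting level afterwards. In WT it was 29.6 and 31.7 TPM at 0 h, 5.45 and 7.48 TPM at 24 h, 82.5 and 46.2 TPM at 72 h, and 64.4 and 63.6 TPM at 144 h. In DKO it was 31.8 and 24.9 TPM at 0 h, 6.80 and 4.93 TPM at 24 h, and 39.9 and 40.4 TPM at 72 h. No library at 24 h overlapped one at another time, and every treated library at 72 h or 144 h lay above every library at 0 h. The fall at 24 h had a log2 fold change of −2.10 ± 0.32 (SE) in WT (limma adjusted p = 0.00068) and −2.10 ± 0.32 in DKO (limma adjusted p = 0.00038). At 144 h *Lef1* was higher in WT by 1.04 ± 0.32 on the log2 scale (limma adjusted p = 0.012), and leaving out any 1 of the 4 libraries of that comparison gave an adjusted p between 0.062 and 0.077. At 72 h the difference was 0.99 ± 0.32 in WT (limma adjusted p = 0.059, and 0.0078 with a block that pairs the replicate numbers of a genotype) and 0.50 ± 0.32 in DKO (limma adjusted p = 0.41). The WT value at 72 h was 0.58 without WT 72 h replicate 1 and 1.4 without WT 72 h replicate 2. The neural progenitor markers *Sox1*, *Pax6* and *Nes*, all above 0 in every library, also differed at 24 h, with a summed level of 31.0 to 36.7 TPM in WT at 0 h against 11.8 to 12.7 TPM, and in DKO 27.1 to 37.9 against 8.74 to 12.0 TPM. The summed fibroblast markers, nearly all *Thy1* (*Col1a1*, *Col1a2* and *Twist2* had means under 1 TPM, and *Twist2* was at 0 in 6 libraries), were 11.9 to 17.3 TPM in WT at 0 h against 2.4 to 3.99 TPM at 24 h, and in DKO 29.5 to 41.9 against 5.99 to 10.03 TPM. The 4 primitive endoderm markers were 14 to 36.8 TPM in WT at 0 h against 75.4 to 189 TPM at 24 h, and in DKO 16.0 to 58.7 against 19.5 to 97.0 TPM. The part of these markers in the *Lef1* result was not tested. On deposited TPM, without the spike-in factor, *Lef1* passed in WT at 72 h (1.38, limma adjusted p = 0.0017) and in DKO at 72 h (0.77, limma adjusted p = 0.026).

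*Tcf7l1* was lower in WT at 72 h and 144 h, and *Lef1* was called higher at 144 h. *Tcf7l1*, which encodes the repressor TCF3, was 82.0 and 78.9 TPM in WT at 0 h, 54.1 and 86.3 TPM at 24 h, 36.2 and 35.2 TPM at 72 h, and 27.1 and 26.5 TPM at 144 h. In DKO it was 74.7 and 61.2 TPM at 0 h, 53.1 and 32.8 TPM at 24 h, and 42.8 and 26.0 TPM at 72 h. The libraries at 72 h lay below those at 0 h in both genotypes, as did those at 144 h in WT. The WT libraries at 24 h straddled those at 0 h. In WT *Tcf7l1* fell by 1.15 ± 0.32 on the log2 scale at 72 h (limma adjusted p = 0.031) and by 1.55 ± 0.32 at 144 h (limma adjusted p = 0.0011). The call at 72 h was lost without any 1 of the 4 libraries compared, at adjusted p between 0.12 and 0.25, and without the filter on low genes, at 0.098. In DKO the log2 difference was −1.0 ± 0.32 at 72 h (limma adjusted p = 0.085, and 0.0054 with that block) and −0.68 ± 0.32 at 24 h (limma adjusted p = 0.14, and 0.022 with that block). The latter was −1.02 without DKO 24 h replicate 1 and −0.34 without DKO 24 h replicate 2. On deposited TPM the differences at 72 h were −0.72 in WT (limma adjusted p = 0.0014) and −0.68 in DKO (limma adjusted p = 0.0021), and that at 144 h was −0.54 (limma adjusted p = 0.0051), so the direction did not rest on the factor.

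*Tcf7* and *Tcf7l2* were not called in any of the 10 comparisons on spike-in normalized TPM. *Tcf7* ranged from 31.4 to 79.7 TPM and *Tcf7l2* from 8.13 to 20.1 TPM, the latter with its highest value in 1 WT library at 24 h whose partner held 11.1 TPM. The sign for *Tcf7* at 144 h depended on the scale, at −0.38 ± 0.30 on spike-in normalized TPM (limma adjusted p = 0.29) and 0.62 on deposited TPM (limma adjusted p = 0.0027). In DKO at 72 h *Tcf7* differed by 0.09 ± 0.30 (limma adjusted p = 0.91) against 0.38 on deposited TPM (limma adjusted p = 0.027).

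The makeup of the family does not depend on the library factor. In WT the share of *Tcf7l1* in the summed TPM of the 4 genes was 46.7% ± 0.432 (SD, n = 2) before treatment, 53.9% ± 7.35 after 24 h, 23.2% ± 5.27 after 72 h and 19.6% ± 0.362 after 144 h. The share of *Lef1* in WT was 17.8% ± 1.17 before treatment, 5.02% ± 0.149 after 24 h, 39.8% ± 6.40 after 72 h and 46.7% ± 1.28 after 144 h. Thus in both WT libraries *Tcf7l1* held the largest share at 0 h and 24 h, and *Lef1* at 72 h and 144 h. In DKO *Lef1* went from 16.2% ± 0.628 at 0 h through 5.66% ± 0.389 to 25.9% ± 4.85 at 72 h, and *Tcf7l1* from 38.8% ± 0.309 through 40.8% ± 1.77 to 21.5% ± 3.71. *Tcf7* was close to *Tcf7l1* in untreated DKO cells, at 38.0% ± 1.26, and held the largest share in both DKO libraries after 24 h, at 43.8% ± 1.33, and after 72 h, at 45.1% ± 0.113. Its share was 26.2% to 29.8% in the 8 WT libraries and 37.1% to 45.2% in the 6 DKO libraries, with no overlap at any time. By level, 57.2%, 16.6% and 64.9% of all genes did not overlap between the genotypes at 0, 24 and 72 h. A share also depends on the other genes. On deposited TPM at 0 h *Tcf7* averaged 25.61 TPM in DKO and 23.45 TPM in WT, and *Tcf7l1* 26.2 and 38.1 TPM. These shares are given as values, with no test. The summed level of the 4 genes was 172 ± 3.14 TPM in untreated WT cells, 128.5 ± 24.8 TPM after 24 h, 159 ± 38.9 TPM after 72 h and 137 ± 4.94 TPM after 144 h.

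**Figure D2:**
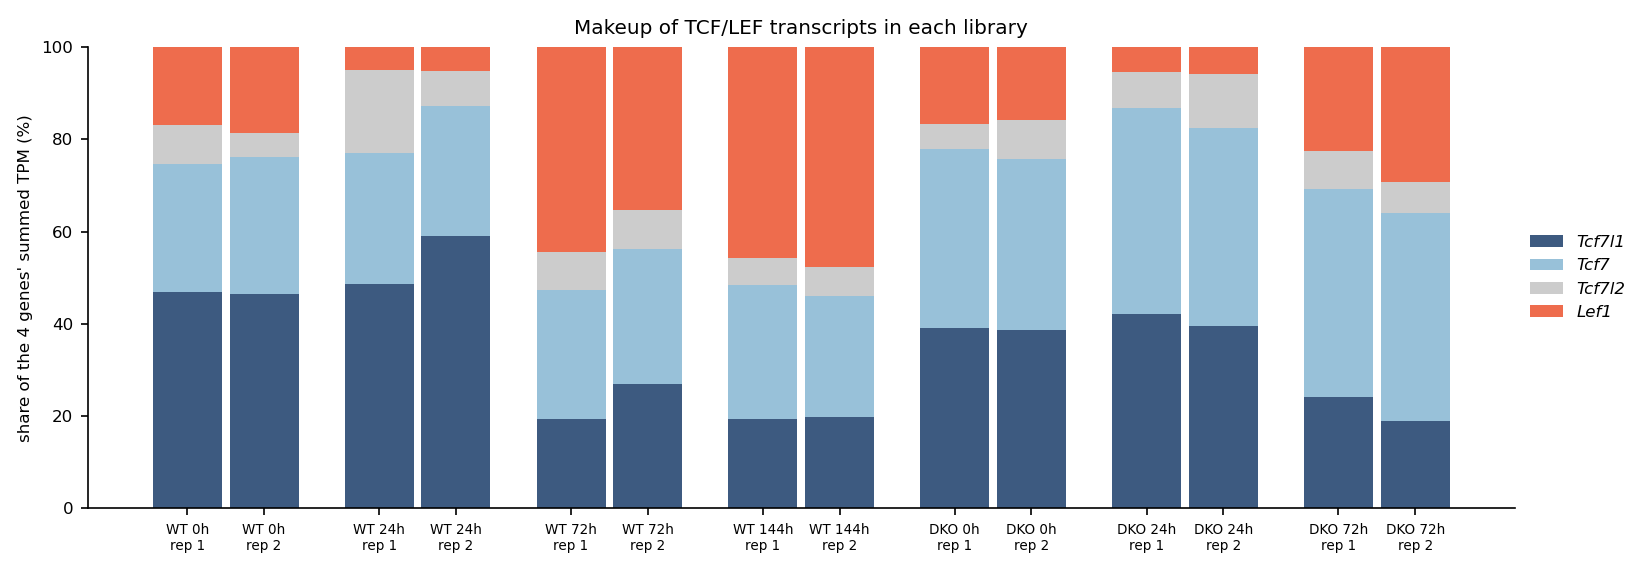
Share of each of *Tcf7l1*, *Tcf7*, *Tcf7l2* and *Lef1* in their summed TPM (y axis, percent), as 1 stacked bar for each of the 14 libraries (x axis). The *Lef1* segment is narrow at 24 h and wide at 72 h and 144 h, and the *Tcf7* segment is wider in every DKO library than in any WT library.

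*Ctnnb1* and *Axin1* were lower at 144 h relative to the spike-in and hardly differed on deposited TPM, whereas *Axin2* was higher at 72 h on both scales. *Ctnnb1* was 764 and 697 TPM in WT at 0 h, 541 and 617 TPM at 24 h, 590 and 523 TPM at 72 h, and 388 and 356 TPM at 144 h. In DKO it was 1014 and 961 TPM at 0 h, 778 and 517 TPM at 24 h, and 935 and 630 TPM at 72 h. In both genotypes each treated library lay below both libraries at 0 h. The log2 difference in DKO at 24 h was −0.64 ± 0.27 (limma adjusted p = 0.10, and 0.023 with the replicate block). Leaving out 1 library moved it to between −0.93 and −0.34. The log2 difference at 144 h was −0.97 ± 0.27 (limma adjusted p = 0.0072), beside a median of −0.83 over all genes tested. On deposited TPM *Ctnnb1* stayed between 330 and 404 TPM in all 14 libraries, with a log2 difference of 0.06 at 144 h (limma adjusted p = 0.69). *Axin1*, the constitutive scaffold, behaved alike in its values: it was 70.1 and 72.1 TPM in WT at 0 h and 38.3 and 35.8 TPM at 144 h, a log2 difference of −0.92 ± 0.28 (limma adjusted p = 0.012), against 0.08 on deposited TPM. Leaving out single libraries took the adjusted p of *Axin1* to between 0.056 and 0.091, and that of *Ctnnb1* to 0.055 without WT 0 h replicate 1 and 0.070 without WT 144 h replicate 2.

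*Axin2*, the inducible scaffold and feedback gene, was highest at 72 h. In WT it was 23.3 and 15.1 TPM at 0 h, 29.2 and 26.0 TPM at 24 h, 63.2 and 40.7 TPM at 72 h, and 28.5 and 25.9 TPM at 144 h. In DKO it was 23.2 and 30.2 TPM at 0 h, 31.2 and 39.1 TPM at 24 h, and 67.0 and 54.8 TPM at 72 h. All 4 libraries at 72 h lay above all others of their genotype, and every treated library lay above those at 0 h of its genotype. *Axin2* rose at 72 h by 1.39 ± 0.31 on the log2 scale in WT (limma adjusted p = 0.011) and by 1.17 ± 0.31 in DKO (limma adjusted p = 0.041). The WT call was lost without WT 0 h replicate 2 (1.09, adjusted p = 0.19), WT 72 h replicate 1 (1.08, adjusted p = 0.13) or WT 72 h replicate 2 (1.70, adjusted p = 0.061). The DKO call was lost in 10 of the 14 fits that left out 1 library, at adjusted p from 0.050 to 0.28, and without the filter on low genes, at 0.076. At 144 h the value depended on the scale, with 0.51 ± 0.31 on spike-in normalized TPM (limma adjusted p = 0.17) and 1.46 on deposited TPM (limma adjusted p = 0.0097). On the former scale it was 0.21 to 0.81 when 1 library was left out. The ratio of *Axin2* to *Axin1*, which holds no factor, was 0.271 ± 0.0874 (SD, n = 2) in untreated WT, 0.969 ± 0.197 after 72 h and 0.734 ± 0.0148 after 144 h, and in DKO 0.335 ± 0.0758 untreated and 1.04 ± 0.103 after 72 h.

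The remaining readout genes were near the limit of what was tested. *T*, which encodes the mesoderm transcription factor brachyury, was 1.30 and 1.53 TPM in WT at 0 h, 1.54 and 2.43 TPM at 24 h, 1.25 and 2.27 TPM at 72 h, and 1.34 and 1.62 TPM at 144 h. In DKO it was 0.875 and 0.608 TPM at 0 h, 1.91 and 1.22 TPM at 24 h, and 3.28 and 2.96 TPM at 72 h. On spike-in normalized TPM the treated WT libraries at 72 h and 144 h overlapped those at 0 h, and both at 24 h lay just above them. In DKO no 2 times overlapped. On deposited TPM *T* in WT was 0.614 and 0.727 TPM at 0 h and 0.754 to 1.62 TPM in the treated libraries, each above both. In DKO it was 0.311 and 0.256 TPM at 0 h and 1.295 and 1.715 TPM at 72 h on that scale. *T* rose in DKO at 72 h by 1.25 ± 0.34 on the log2(TPM + 1) scale, which understates changes of low genes (limma adjusted p = 0.043). This call was lost in 10 of the 14 fits that left out 1 library, at adjusted p from 0.058 to 0.24, and without the low filter, at 0.068. It was also lost with the replicate block across all libraries, as given below. In WT at 72 h the difference was 0.17 ± 0.34 (limma adjusted p = 0.80). The summed level of 6 other mesendoderm markers was 12.6 to 13.6 TPM in DKO at 0 h and 11.2 to 14.6 TPM in DKO at 72 h, with *Mixl1*, *Gsc*, *Mesp1* and *Evx1* at means under 1 TPM. Its 2 higher members went apart: *Eomes* was 5.91 and 7.59 TPM in DKO at 0 h and 9.78 and 8.40 TPM at 72 h, a difference of 0.39 ± 0.33 (limma adjusted p = 0.56, and 0.57 with an adjusted p of 0.048 on deposited TPM). *Foxa2* was 3.04 and 1.22 TPM against 0.560 and 0.872 TPM, a difference of −0.81 ± 0.36 (limma adjusted p = 0.22). The part of these markers in the *T* result was not tested. *Nkd1*, which encodes an antagonist of Dishevelled, ranged from 1.09 to 3.64 TPM and was called in none of the 10 comparisons on spike-in normalized or deposited TPM. With the libraries centred on their medians it was called in WT at 144 h (0.97, limma adjusted p = 0.019). *Sp5*, a transcription factor gene with 2 motif matches in its promoter window, was 0.777 to 1.95 TPM in WT and 0.312 to 0.922 TPM in DKO. With the filter removed it was called in 0 comparisons by limma, and its DKO against WT difference at 0 h was −0.71 ± 0.27 (limma adjusted p = 0.52, unadjusted p = 0.030).

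Counted together, 1 of the 9 tested genes was called in WT at 24 h, *Lef1* (lower), where 9.98% of all genes were called. At 72 h in WT 2 were called, *Axin2* (higher) and *Tcf7l1* (lower), beside 8.29% of all genes. Only 0.697% of all genes were called higher in that comparison. At 144 h 4 were called, *Lef1* (higher) and *Ctnnb1*, *Axin1* and *Tcf7l1* (lower), beside 50.9% of all genes, of which 50.5% were lower and 0.461% higher. In DKO 1 was called at 24 h, *Lef1* (lower), beside 19.2% of all genes, and 2 at 72 h, *Axin2* and *T* (both higher), beside 3.66%, with 0.713% of all genes higher. Groups of 2 are often apart: over all genes the libraries did not overlap for 59.9%, 68.2% and 85.7% in WT at 24, 72 and 144 h against 0 h, 49.9% and 45.8% in DKO at 24 and 72 h, and 57.2%, 16.6% and 64.9% between the genotypes at 0, 24 and 72 h. The genes were chosen with earlier results of these data known, so the counts are a description. The comparisons over time share the libraries at 0 h of their genotype and are not independent of each other. Their median log2 difference in WT was −0.23, then 0.17 and finally −0.38, beside medians over all genes of −0.33, −0.33 and −0.83. Pairing the replicate numbers of a genotype called 3 of the 9 in WT at 72 h, 3 in DKO at 24 h and 3 in DKO at 72 h, beside 28.3%, 40.0% and 18.5% of all genes. The genes gained were *Lef1* in WT at 72 h, *Ctnnb1* and *Tcf7l1* in DKO at 24 h and *Tcf7l1* in DKO at 72 h. On deposited TPM 2 were called higher and 1 lower in WT at 72 h, 3 higher and 1 lower at 144 h, and 4 higher and 1 lower in DKO at 72 h, where 24.0%, 27.3% and 26.3% of all genes were called in either direction. At 144 h the same change of scale took all genes from 50.5% lower and 0.461% higher to 11.7% lower and 15.6% higher.

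**Figure D3:**
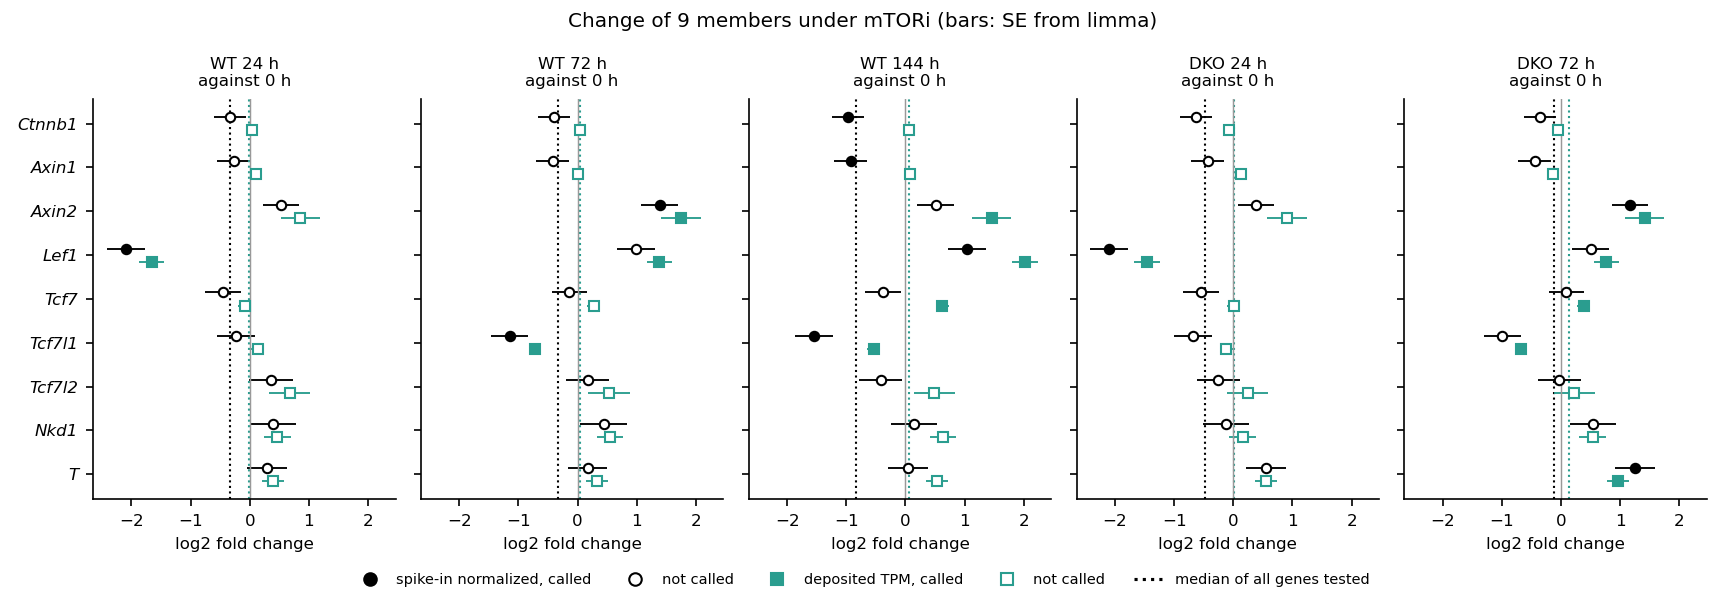
Log2 fold change against 0 h (x axis) of the 9 tested genes (y axis) in 5 comparisons. Circles are spike-in normalized TPM and squares deposited TPM, filled where called, bars are SE from limma, and dotted lines mark the median of all genes tested. The circles of *Ctnnb1* and *Axin1* at 144 h lie near the black dotted line, and those of *Lef1* and *Axin2* to its right.

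No gene of the 9 was called between the libraries labelled DKO and WT, at any time. Over all genes limma called 0.0439%, 0.0439% and 0.329% in these comparisons. At an unadjusted p under 0.05, 0, 1 and 1 of the 9 genes passed, beside 8.35%, 4.14% and 23.0% of all genes. On deposited TPM 0, 1 and 2 were called, beside 0.598%, 1.37% and 4.01% of all genes: *Tcf7l1* at 24 h, and *Tcf7l1* and *Lef1* at 72 h, all lower in DKO. *Lef1* at 72 h was 39.9 and 40.4 TPM in DKO and 82.5 and 46.2 TPM in WT, which did not overlap, with a log2 difference of −0.61 ± 0.32 (limma adjusted p = 0.24) on spike-in normalized TPM and −1.0 on deposited TPM (limma adjusted p = 0.034). On the former scale it was −0.20 without WT 72 h replicate 1 and −1.02 without WT 72 h replicate 2. *Tcf7l1* on deposited TPM was 38.1 ± 1.05 TPM (SD, n = 2) in WT and 26.2 ± 0.539 TPM in DKO at 0 h, 42.1 ± 6.26 and 24.0 ± 0.307 TPM at 24 h, and 22.8 ± 1.24 and 16.0 ± 1.30 TPM at 72 h. The DKO libraries were lower at each of these times, with log2 differences of −0.53 (limma adjusted p = 0.061), −0.78 (limma adjusted p = 0.011) and −0.49 (limma adjusted p = 0.037). On spike-in normalized TPM the same differences were −0.25, −0.70 and −0.09, at adjusted p of 0.74, 1 and 0.83 by limma. Without 1 library the *Tcf7l1* difference on that scale was −0.39 to −0.11 at 0 h and −1.03 to −0.36 at 24 h. *Tcf7* differed by 0.64 ± 0.30 at 72 h (limma adjusted p = 0.21), beside a median of 0.49 over all genes.

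The response to mTORi was also compared between the genotypes by an interaction term. By limma 0 of the 9 genes passed at 24 h and 0 at 72 h, where 0.00548% and 0.0% of all genes were called, and 0 and 1 passed at an unadjusted p under 0.05, beside 1.22% and 0.993% of all genes. For *Lef1* the DKO response minus the WT response at 72 h was −0.49 ± 0.45, for *Axin2* −0.22 ± 0.44 and for *Tcf7l1* 0.15 ± 0.45. For *T*, the gene with the unadjusted p under 0.05, it was 1.08 ± 0.48. All 4 had a limma adjusted p of 1. Leaving out 1 library moved the *Lef1* value to between −0.90 and −0.081, and that of *T* to between 0.81 and 1.35. The standard errors above leave differences of a size near that of the responses themselves undetectable with 2 libraries a group.

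**Figure D4:**
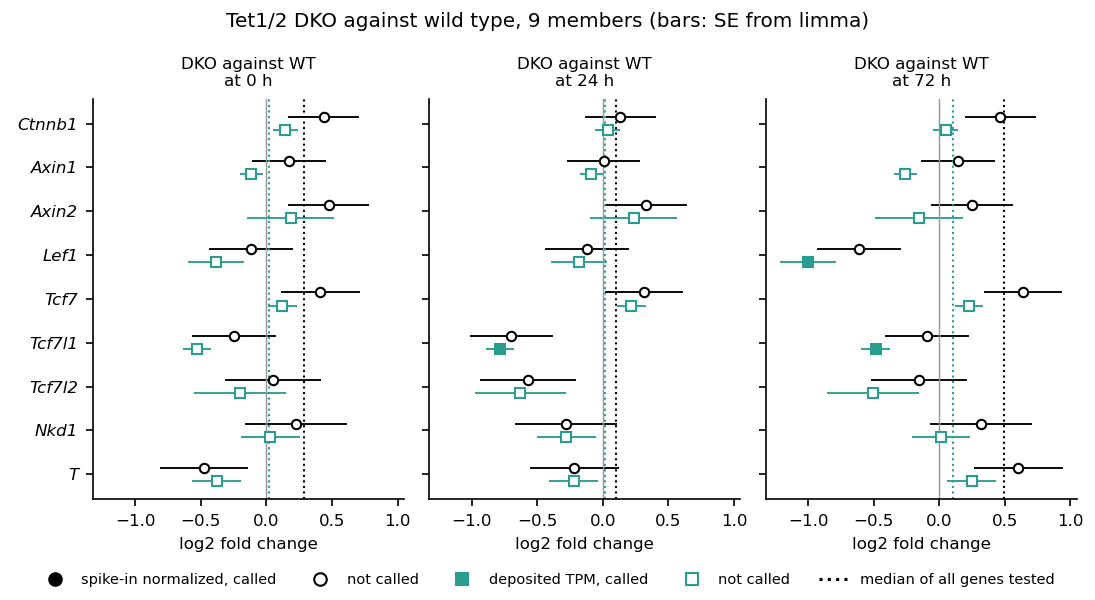
Log2 difference of DKO against WT (x axis) for the 9 tested genes (y axis) at 0, 24 and 72 h. Circles are spike-in normalized TPM and squares deposited TPM, filled where called, with SE bars from limma and the median of all genes dotted. No circle is filled, and the filled squares are *Tcf7l1* at 24 h and 72 h and *Lef1* at 72 h.

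A further 106 genes of the pathway were sorted by role, of which 72 were tested. Of these, 1 was called higher and 4 lower after 24 h in WT, where 1.25% of all genes were higher and 8.73% lower. After 72 h 0 were higher and 2 lower, beside 0.697% and 7.6% of all genes, and after 144 h 1 was higher and 30 lower, beside 0.461% and 50.5%. In DKO 0 were called higher and 8 lower at 24 h, where 0.505% of all genes were higher and 18.7% lower, and 0 and 2 at 72 h, beside 0.713% and 2.95%. By limma 0 were called between DKO and WT at each time on spike-in normalized TPM, and 11, 6 and 13 of the 72 passed at an unadjusted p under 0.05 at 0, 24 and 72 h, where the shares over all genes were 8.35%, 4.14% and 23.0%. The median log2 difference of the list at 144 h was −0.70, beside −0.83 over all genes.

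These counts depended on the scale and on the pairing. On deposited TPM most calls were higher, with 14 higher and 7 lower in WT at 24 h (15.8% and 14.1% of all genes) and 17 and 2 at 72 h (12.6% and 11.4%). In DKO they were 9 and 7 at 24 h (11.6% and 13.3%) and 19 and 2 at 72 h (17.2% and 9.06%). Between DKO and WT deposited TPM called 0 at 0 h, 2 lower at 24 h, and 2 higher and 1 lower at 72 h, beside 0.598%, 1.37% and 4.01% of all genes in either direction. With the replicate numbers paired inside a genotype, the spike-in scale gave 3 higher and 12 lower in WT at 24 h (4.48% and 25.7% of all genes), 2 and 7 at 72 h (2.85% and 25.4%) and 1 and 43 at 144 h (1.05% and 66.3%). For DKO that pairing gave 0 and 18 at 24 h (1.95% and 38.1%) and 0 and 4 at 72 h (5.34% and 13.2%).

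At 24 h in both genotypes, and at 72 h in DKO, the largest called falls on the list were in *Ccnd1* and *Sfrp5*. *Ccnd1*, which encodes cyclin D1 and is a known target of the pathway, was 124 and 95.7 TPM in WT at 0 h, 21.2 and 11.8 TPM at 24 h, 70.4 and 49.9 TPM at 72 h, and 56.7 and 57.8 TPM at 144 h. Like *Lef1* it was lowest at 24 h, with a log2 fall of −2.71 in WT (limma adjusted p = 2.9e-05) and −2.34 in DKO (limma adjusted p = 0.00011). On spike-in normalized TPM it did not return above its level at 0 h. On deposited TPM *Ccnd1* in WT was 45.3 to 58.9 TPM at 0 h and 53.0 to 57.8 TPM at 144 h, which overlapped. *Sfrp5*, which encodes a secreted Frizzled-like inhibitor, was 9.43 and 8.72 TPM in WT at 0 h and 1.55 and 1.42 TPM at 24 h, a difference of −2.02 (limma adjusted p = 0.0012), and differed by −2.30 in DKO at 24 h (limma adjusted p = 0.00028). It was lower at 72 h in both genotypes too, by −1.42 in WT (limma adjusted p = 0.015) and −1.23 in DKO (limma adjusted p = 0.046). *Foxa2*, an endoderm transcription factor gene, was higher in WT at 24 h by 1.56 (limma adjusted p = 0.010), at 1.24 and 1.98 TPM at 0 h against 7.48 and 5.81 TPM. In DKO it was 3.04 and 1.22 TPM at 0 h against 2.12 and 1.63 TPM at 24 h (−0.06 ± 0.36, limma adjusted p = 0.92), and the DKO response minus the WT response at 24 h was −1.62 ± 0.51 (limma adjusted p = 1). Between DKO and WT at 24 h it differed by −1.41 (limma adjusted p = 0.27), and by −1.29 on deposited TPM (limma adjusted p = 0.039). The summed level of the primitive endoderm markers *Gata4*, *Gata6*, *Sox17* and *Pdgfra* was higher in WT at 24 h than in WT at 0 h. In DKO these 2 times overlapped, as given above. The part of these markers in the *Foxa2* result was not tested.

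Among ligands 5 of 19 were tested, and the highest were *Wnt6* at a mean of 5.89 TPM, *Wnt7b* at 4.95 TPM and *Wnt8a* at 2.62 TPM. *Wnt7b* was 4.29 and 10 TPM in WT at 0 h, 1.01 and 2.06 TPM at 72 h, and 0.989 and 0.547 TPM at 144 h. It fell by 1.62 on the log2 scale at 72 h (limma adjusted p = 0.018) and by 2.12 at 144 h (limma adjusted p = 0.00058). Markers of other lineages were also lower at 144 h than in WT at 0 h: the summed trophectoderm markers *Cdx2*, *Gata3*, *Elf5* and *Krt7*, of which *Gata3* was the highest and *Elf5* was at 0 in 4 libraries, were 1.86 to 2.02 against 10.4 to 15.3 TPM, and the primitive endoderm markers 4.95 to 5.22 against 14 to 36.8 TPM. The neural progenitor markers were 13.68 to 13.71 against 31.0 to 36.7 TPM, and the fibroblast markers 4.68 to 6.145 against 11.9 to 17.3 TPM. In WT at 72 h these 2 sums were 16.4 to 17.65 and 4.54 to 7.865 TPM, and the trophectoderm sum 8.74 to 8.80 TPM. The primitive endoderm sum at 72 h, 7.82 to 25.9 TPM, overlapped that at 0 h. The part of these markers in the *Wnt7b*, *Tcf7l1* and *Axin2* results was not tested. Receptors were more abundant, with *Fzd5* at 132 TPM, *Ryk* at 74.7 TPM and *Lrp6* at 65.1 TPM, and 3 of 14 were called lower at 144 h, where 50.5% of all genes were. In the destruction complex 6 of 11 were lower at 144 h, *Csnk1a1* (casein kinase 1α) by −0.95 (limma adjusted p = 0.010). Of the nuclear partners, which include Groucho-type corepressors, 8 of 10 were lower, *Aes* by −1.61 (limma adjusted p = 0.00027). *Sp8*, a transcription factor gene related to *Sp5*, was the only gene of these 72 called higher at 144 h, by 0.87 (limma adjusted p = 0.037). Its level was near the limit of what was tested, at a mean of 1.28 TPM over the 14 libraries. In WT *Sp8* was 0.627 to 1.065 TPM at 0 h and 2.08 to 2.63 TPM at 144 h. On deposited TPM the direction at 144 h was mostly the other: 22 of the 72 were called higher and 4 lower, beside 15.6% and 11.7% of all genes, with 8 of 14 receptors higher, and the list's median was 0.24 beside 0.05 over all genes.

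**Figure D5:**
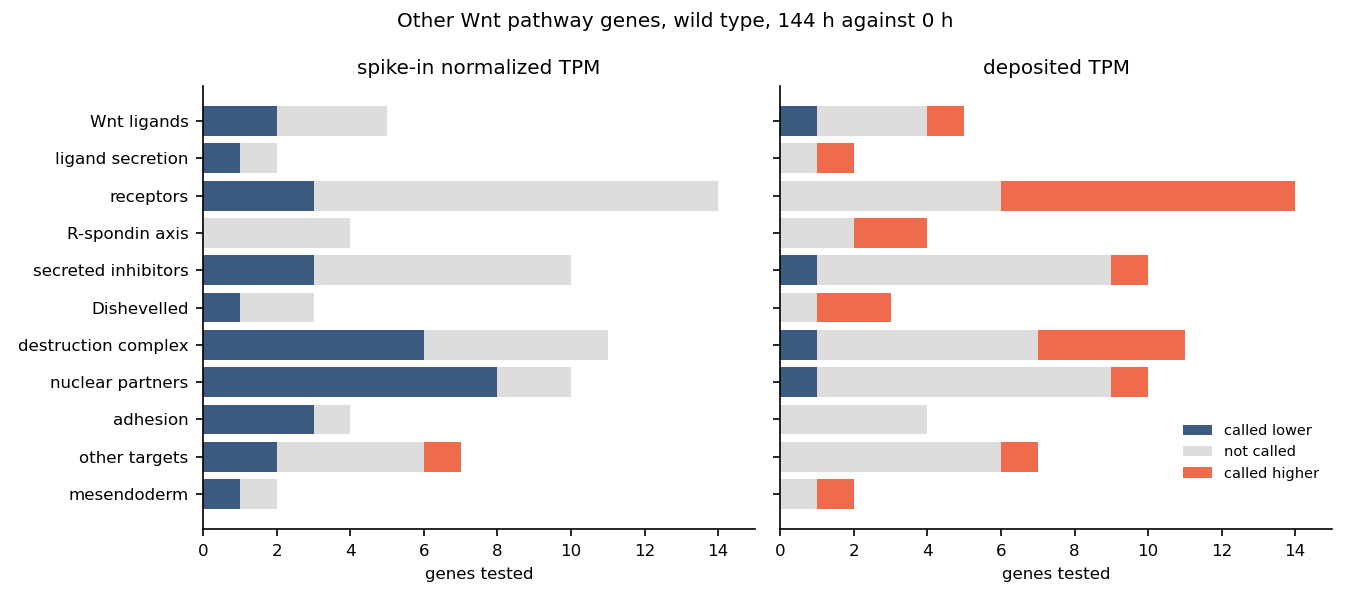
Number of tested pathway genes (x axis) called lower, not called or called higher in WT at 144 h against 0 h, by role (y axis), on spike-in normalized TPM (left) and deposited TPM (right). On the left 30 of 72 are lower and 1 is higher. On the right 4 are lower and 22 higher.

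The genes whose pattern was most like those of 4 members were found by Pearson's r of log2 values over the 14 libraries, each centred on its own median. The 14 points share 7 groups, so r is a description. For *Axin2* they were *Zfp532* (0.972), *Dock10* (0.971) and *Spry2* (0.953), for *Lef1* *Bcl11a* (0.965), *Arhgef19* (0.964) and *Snord49a* (0.964), and for *Tcf7l1* *Rit1* (0.974), *Snx27* (0.962) and *Gstm2* (0.946). For *T* they were *Gm9974* (0.950), *1700126G02Rik* (0.934) and *Gm43379* (0.932), all at means under 1.5 TPM. None of these was another of the 10 genes. Between any of these 4 and another of the 9 tested genes, r ran from −0.672 (*T* with *Ctnnb1*) to 0.807 (*Tcf7l1* with *Axin1*).

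The loci lie, on build mm10, at chr9:120929216-120960507 for *Ctnnb1* (plus strand), chr11:108920349-108950783 for *Axin2* (plus), chr3:131110471-131224356 for *Lef1* (plus), chr6:72626378-72789254 for *Tcf7l1* (minus), chr11:52252371-52283014 for *Tcf7* (minus) and chr17:8434423-8442496 for *T* (plus). The span of *Lef1* overlaps *Gm42449* on the same strand (mean 1.48 TPM), and that of *Tcf7l1* overlaps *Gm37736* on the same strand (mean 5.40 TPM), so that reads in the shared stretches could be assigned to either gene.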

How the data were processed

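RNA-seq was analysed in 14 libraries of mouse E14 ES cells. The authors deposited 1 table of TPM per library. Per the submitters' processing notes the tools were cutadapt 2.4, STAR 2.7.3a and StringTie 2.0, with build mm10. The deposited TPM sum to 1e+06 in each library and hold 0 ERCC entries, so each library was multiplied by the median ratio of the study's normalized TPM table to the deposited TPM. Only the first 1999 entries of that table were used, of which 482 to 539 genes of at least 1 TPM stood behind each factor. Entries were summed per gene identifier.

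All 14 libraries entered 1 fit of group means on log2(TPM + 1) in limma 3.58.1 (R 4.3.3; lmFit, eBayes with trend) over the 18232 genes that averaged 1 TPM or more, of 38890 above 0. There were 10 comparisons, each two-sided with Benjamini-Hochberg adjustment over all genes tested. The fit was run on simulated data with noise drawn independently for each gene and library, and with changes only in WT at 144 h. That setting held no error shared by the genes of a library or replicate, so it cannot check for one. Tables and figures used Python 3.11.15, pandas 2.3.3, numpy 2.4.6 and matplotlib 3.10.9. Alternatives were deposited TPM, centring on library medians, a pseudocount of 0.1, no filter, the replicate number as a block (also crossed between the genotypes, added after seeing the data), and leaving out each library.

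The study states that the time points of a replicate were processed in parallel. Deviations of same-numbered libraries from their group means correlated in 3 of 3 pairs of DKO times (r 0.222 to 0.341) and in 5 of 6 pairs of WT times above 0.1 (0.0622 to 0.398), but between genotypes r was −0.501 to 0.116, so numbers were paired within a genotype only.

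Named are all 10 members. From the pathway list, the rule named the largest called changes (up to 3 each way at 144 h and 2 elsewhere) and the 3 genes with the highest mean per role, of which some are printed. It also named the 3 genes most like *Axin2*, *Lef1*, *Tcf7l1* and *T*. Members and lists were chosen with earlier results of these data known. Positions of motifs and windows came from RefSeq (GRCm38.p6).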

Additional observations from a re-analysis of the deposited data

How the results depend on the processing

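The number of the 9 genes called depended on the scale and on single libraries. With deposited TPM it was 5 in DKO at 72 h, 1 between DKO and WT at 24 h and 2 at 72 h. With centring on library medians it was 2 in DKO at 24 h, 4 in DKO at 72 h, and 1 between DKO and WT at both 24 h and 72 h. Without the filter it was 1 in WT at 72 h and 0 in DKO at 72 h, and a pseudocount of 0.1 gave 1 in DKO at 72 h. The replicate block within each genotype gave 3 in DKO at 24 h, and the replicate block across all libraries gave 1 in DKO at 72 h, where *T* was lost (adjusted p = 0.053 by limma). With the replicate block within each genotype 4 of the 31 single-gene differences gained a call, and neither block changed another. A block with the numbers crossed between the genotypes, added after seeing the data because r between them was mostly below 0, called 0 of the 9 between DKO and WT at each time. Leaving out 1 library gave 1 to 1 in WT at 24 h, 0 to 3 at 72 h and 1 to 4 at 144 h, 1 to 5 and 0 to 3 in DKO at 24 and 72 h, and 0 to 0 in the other 5 comparisons. The 5 in DKO at 24 h came without DKO 24 h replicate 1, which also gave 3 in WT and in DKO at 72 h, as did leaving out DKO 24 h replicate 2. At 144 h 1 was called without WT 0 h replicate 1 or WT 144 h replicate 2, and 2 without WT 0 h replicate 2 or WT 144 h replicate 1.

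Signs reversed on deposited TPM for *Ctnnb1* (0.056) and *Axin1* (0.085) at 144 h, and, deposited then centred, for *Tcf7* (0.62 and 0.46) and *Tcf7l2* (0.49 and 0.42) at 144 h, *Axin2* in DKO against WT at 72 h (−0.15 and −0.26) and the *Lef1* response at 24 h (0.20 and 0.19). Centred, the *Tcf7l1* response at 72 h was −0.041. Leaving out single libraries moved across 0 the differences of *T* in WT at 72 h (−0.10 to 0.44) and 144 h (−0.042 to 0.12), *Tcf7* in DKO at 72 h (−0.090 to 0.27), DKO against WT for *Lef1* at 0 h (−0.29 to 0.050) and 24 h (−0.32 to 0.077) and for *Axin2* (−0.061 to 0.56) and *Tcf7l1* (−0.44 to 0.26) at 72 h, and the responses of *Lef1* at 24 h (−0.20 to 0.20) and of *Axin2* (−0.54 to 0.088) and *Tcf7l1* (−0.19 to 0.50) at 72 h. The cause was not tested.

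TPM hold no read depth, and no counting error was computed for *Sp5*, *T* and *Nkd1*.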
